A study of Homo sapiens with 6 samples.

Results

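ITGAM, ITGAX and ITGA8 encode 3 integrin alpha chains, and they are 3 of the 2778 features in the count table of this study. They were picked by gene name, with their values in the comparison below already known. Those values are therefore given as a description, with no test. RNA of A375, an established human melanoma line, was sequenced from 3 libraries of cells with the genotype CYGB-overexpression and 3 libraries of WT cells. CYGB is the gene of cytoglobin, a globin that carries haem. Cells of both groups were cultured in the same medium and left untreated. The labels name no empty-vector control, no batch and no clone, and the sources used here do not give the construct that drives CYGB. Whether replicates were separate cultures is not labelled. The p-values below therefore reflect only library-to-library spread, which may be technical.

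Integrins are cell-surface receptors made of 1 alpha and 1 beta chain. They bind matrix proteins or other cells and link them to the actin skeleton. ITGAM (CD11b) and ITGAX (CD11c) pair with the beta chain ITGB2. The pairs are known as complement receptors 3 and 4 of myeloid cells, and they bind fragments of complement C3, ICAM1 and fibrinogen. ITGA8 pairs with ITGB1, binds ligands such as nephronectin through the peptide motif RGD, and is known from mesenchymal cells, smooth muscle and the developing kidney. ITGAM and ITGAX are thus called leukocyte-type chains here, and ITGA8 the mesenchymal chain. These names describe where the chains are best known, not the cells measured.

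In GENCODE 29 on GRCh38, ITGAM (ENSG00000169896) lies on the plus strand of chromosome 16, from 31259967 to 31332892. ITGAX (ENSG00000140678) follows it on the same strand, from 31355134 to 31382997, with 22.2 kb between the genes. ITGA8 (ENSG00000077943) lies on the minus strand of chromosome 10, from 15513949 to 15720125. ITGAM and ITGAX are close relatives, and the stretch of transcript where they are most alike is shown here because reads from it could be credited to either gene. It comes from exons 13 and 14 of a coding transcript of each gene, is wholly coding, and is written 5′ to 3′ from the GENCODE transcripts. It covers chr16:31297533-31297654 and chr16:31297742-31297749 in ITGAM, and chr16:31362954-31363075 and chr16:31363165-31363172 in ITGAX. Capitals mark the 9 of 130 bases that differ.
ITGAM: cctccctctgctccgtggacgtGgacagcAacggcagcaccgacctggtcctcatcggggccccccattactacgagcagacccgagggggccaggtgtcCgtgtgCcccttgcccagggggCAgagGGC
ITGAX: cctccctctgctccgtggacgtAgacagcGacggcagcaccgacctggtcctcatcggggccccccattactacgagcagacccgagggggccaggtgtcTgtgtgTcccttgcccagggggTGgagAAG
The run between the capitals, 70 bases long, was the longest that the coding transcripts of ITGAM and ITGAX share. Of 5767 distinct windows of 50 bases in ITGAM transcripts, 21 (0.364%) also occurred in transcripts of another gene, in each case ITGAX. The count was 127 of 7381 (1.72%) for ITGAX, of which 88 were in ITGAM or in the neighbouring integrin gene ITGAD. For ITGA8 it was 22 of 7479 (0.294%), none of them in another of the integrin genes compared. No window of 100 bases in these 3 genes occurred in another gene. Most positions of each transcript were therefore specific to its gene at these lengths.

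RefSeq promoter windows (GRCh38.p14) were at hand for 2 of the 3 genes, ITGAM and ITGA8. They are shown because these genes lay at opposite ends of the comparison. Only bases before every GENCODE start of the gene are printed, 5′ to 3′ on the strand of the gene, from chr16:31259725-31259966 (plus strand) and chr10:15720126-15720172 (minus strand). Capitals mark GAGGAA, the core that the myeloid factor PU.1 recognises.
ITGAM: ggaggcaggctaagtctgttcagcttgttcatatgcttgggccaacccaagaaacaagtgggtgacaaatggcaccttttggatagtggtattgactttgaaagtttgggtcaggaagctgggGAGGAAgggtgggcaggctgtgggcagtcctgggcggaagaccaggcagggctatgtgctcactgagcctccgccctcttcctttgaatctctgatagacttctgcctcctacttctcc
ITGA8: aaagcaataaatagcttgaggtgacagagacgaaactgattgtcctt
On both strands of the whole 300-base windows, ITGAM had 2 matches to GAGGAA and ITGA8 had 0, and 27.9% of all 35116 windows held at least 1. GGGCGG, the GC box, occurred 2 times in the ITGAM window and 4 times in the ITGA8 window, and in 45% of all windows. A match describes the letters only. SPI1, which encodes PU.1, was not among the rows and was not analysed here.

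Facts of the table bear on every value below. Log2 ratios of the group means left the range from -0.995 to 0.995 empty, so the table holds features selected for a difference of about 2-fold or more between these very libraries. Column totals were 1533260 to 1897052 counts in CYGB-overexpression libraries and 2025159 to 2801576 in WT libraries, and they are sums over the selected rows, not depths. Normalized counts are counts divided by a size factor, which was set within each group by TMM and between the groups by placing the middle of the empty range at 0. CYGB itself, the check of the labels, had 20740 to 26267 counts in CYGB-overexpression libraries and 33 to 47 in WT libraries. CYGB-overexpression replicate 1 stood apart, with a median absolute log2 difference of 0.458 and 0.467 from replicates 2 and 3, against 0.211 between those and 0.175 to 0.185 among WT libraries.

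ITGAM was nearly undetected in CYGB-overexpression libraries and present in all WT libraries. It had 6, 0 and 0 counts in CYGB-overexpression replicates 1 to 3, against 106, 101 and 81 counts in WT replicates 1 to 3. All of its counts in the overexpressing group came from replicate 1, the library that stood apart. A count of 0 allows up to 3 counts, which is a normalized count of 3.35 in replicate 2 and 2.73 in replicate 3. The normalized count averaged 2.13 ± 3.70 in CYGB-overexpression and 94.2 ± 19.7 in WT (SD, n = 3 each), and the groups did not overlap. Over the summed counts, 6 against 288, WT exceeded CYGB-overexpression 45.2-fold (95% interval 20.5 to 124, exact, covering counting error only). Without CYGB-overexpression replicate 1 it was at least 61.5-fold lower in CYGB-overexpression, computed against the floor of 3 counts over the group. Without replicate 3 the ratio was 28.2 (12.8 to 77.6).

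ITGAX was lower in CYGB-overexpression by a smaller factor and stayed well detected. It had 44, 67 and 79 counts in CYGB-overexpression replicates 1 to 3, against 195, 233 and 197 counts in WT replicates 1 to 3. The normalized counts were 46.9, 74.8 and 71.8 in CYGB-overexpression libraries and 214, 184 and 209 in WT libraries, so that every CYGB-overexpression library lay below every WT library. Means were 64.5 ± 15.3 in CYGB-overexpression and 203 ± 16.2 in WT (SD, n = 3 each), with a fitted log2 fold change of -1.65. Over the summed counts WT exceeded CYGB-overexpression 3.10-fold (95% interval 2.63 to 3.66, counting error only). The span of the pseudogene AC093520.2 overlaps that of ITGAX on the other strand, and the strand setting is not stated. No window of 50 bases in ITGAX transcripts occurred in GENCODE transcripts of AC093520.2, read on either strand. Any stretch that these transcripts share was therefore shorter than 50 bases. CYGB-overexpression replicate 1 was the lowest library, while for ITGAM it was the highest of its group.

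ITGA8 had the opposite direction. It had 88, 367 and 465 counts in CYGB-overexpression replicates 1 to 3, against 3, 14 and 9 counts in WT replicates 1 to 3. The gene was therefore close to the detection floor in WT and plainly detected in every CYGB-overexpression library. Normalized counts averaged 309 ± 186 in CYGB-overexpression and 7.98 ± 4.12 in WT (SD, n = 3 each), with no overlap and a fitted log2 fold change of 5.21. The summed counts, 920 against 26, gave a ratio of 37.6 (95% interval 25.5 to 57.8, counting error only). The large SD came from replicate 1, where the normalized count was 93.9, against a mean of 416 in replicates 2 and 3, which was 4.43 times as high. Without replicate 1 the ratio was 49.9 (33.8 to 76.9).

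**Figure D1:**
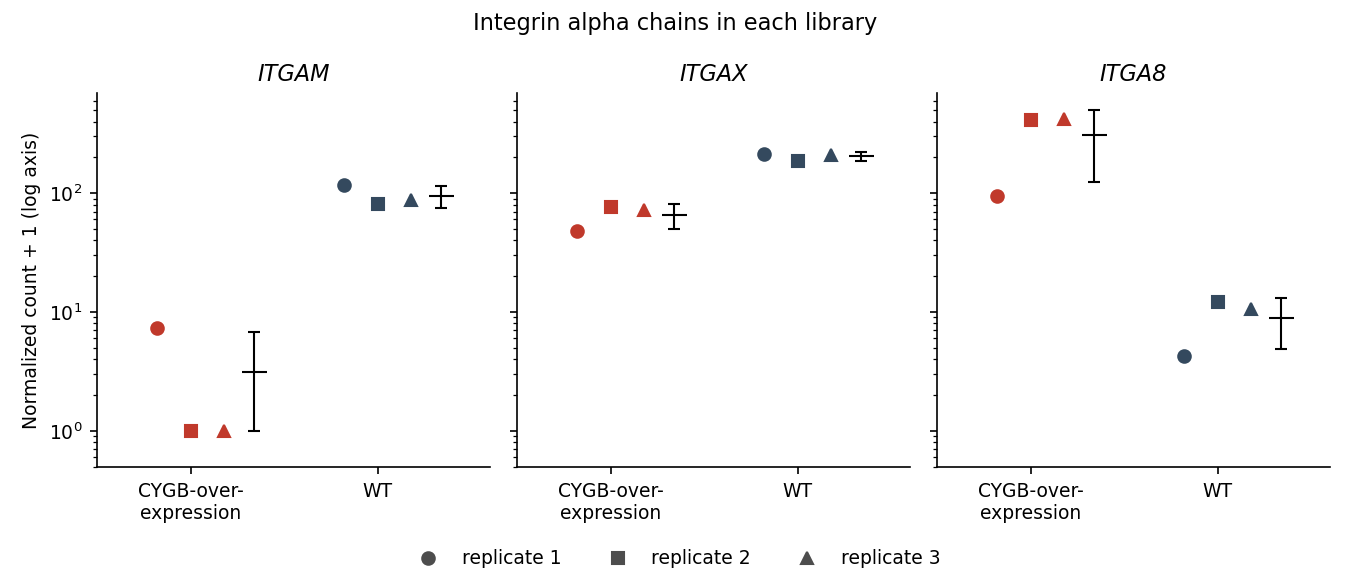
Normalized count + 1 (log axis) of ITGAM, ITGAX and ITGA8 in each library, CYGB-overexpression left and WT right; the horizontal bar is the mean and the whiskers the SD of 3 libraries, cut at the axis floor for a normalized count of 0. ITGAM and ITGAX are lower and ITGA8 is higher in every CYGB-overexpression library than in any WT library.

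Libraries without overlap between the groups were the rule in this table: 28.3% of the 2778 features were higher in all CYGB-overexpression libraries than in any WT library, and 70.1% were lower. The 3 chains are rows of a table selected in that way, so nothing is read from their lack of overlap. By fitted log2 fold change among the 2465 features tested, ITGAM ranked 17 from the lowest and ITGA8 ranked 12 from the highest, while ITGAX ranked 806 from the lowest. The median over all features tested was -1.30. ITGAM and ITGA8 thus stood in the tails of the table and ITGAX near the middle of its lower part. All 3 kept their direction under each of the 13 alternatives run, which include 4 other scalings, another test program, a replicate block and the removal of each library. With no overlap between the groups, only the 4 other scalings could have turned a direction. Over the 13 alternatives the log2 fold changes ranged from -1.76 to -0.44 for ITGAX and from 4.88 to 6.39 for ITGA8. That of ITGAM was -4.26 under TMM and -4.25 under DESeq2 size factors over the whole table, and at most -5.94, a bound, without CYGB-overexpression replicate 1.

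**Figure D2:**
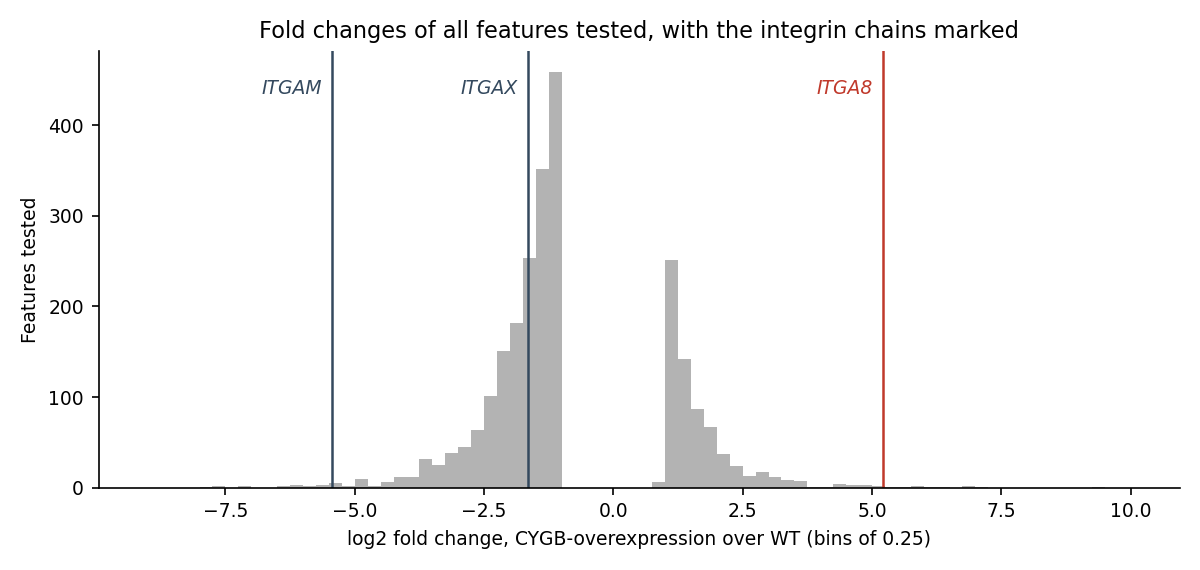
Number of features tested (vertical axis) by log2 fold change of CYGB-overexpression over WT (horizontal axis, bins of 0.25), with vertical lines at ITGAM (-5.43), ITGAX (-1.65) and ITGA8 (5.21). The gap around 0 is the selection of the table, and ITGAM and ITGA8 lie in its outer tails.

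Levels of different genes were compared per kb of exon, over all annotated exons of each gene. In CYGB-overexpression libraries ITGA8 had the highest level, 12.5, 54.4 and 56.1 normalized counts per kb, followed by ITGAX with 6.64, 10.6 and 10.2 and ITGAM with 1.13, 0 and 0. WT libraries had the reverse order of types. There ITGAX stood at 30.3, 26.0 and 29.6 normalized counts per kb, ITGAM at 20.5, 14.0 and 15.1, and ITGA8 at 0.44, 1.47 and 1.27. Neighbours in either order did not overlap between libraries. The order of ITGA8 against the leukocyte-type chains was therefore turned round between the groups.

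Ratios of raw counts within a library do not depend on how libraries are scaled. ITGA8 had 2.0, 5.48 and 5.89 counts per count of ITGAX in CYGB-overexpression replicates 1 to 3, against 0.0154, 0.0601 and 0.0457 in WT replicates 1 to 3. ITGAM had 0.136, 0 and 0 counts per count of ITGAX in CYGB-overexpression libraries, against 0.544, 0.433 and 0.411 in WT libraries. ITGAM was thus lower relative to ITGAX, its relative and neighbour, in every CYGB-overexpression library. ITGAX had 2.44, 2.31 and 2.93 counts per count of ITGB2, its partner chain, in CYGB-overexpression libraries and 4.06, 3.48 and 3.40 in WT libraries. None of these ratios overlapped between the groups, but the chains were picked with their values known, so nothing is read from that. The ratio of ITGAX to ITGB2 rests on 18, 29 and 27 ITGB2 counts in CYGB-overexpression libraries, and no counting interval was computed. In bulk RNA, fewer cells with a transcript and less of it per cell cannot be told apart.

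**Figure D3:**
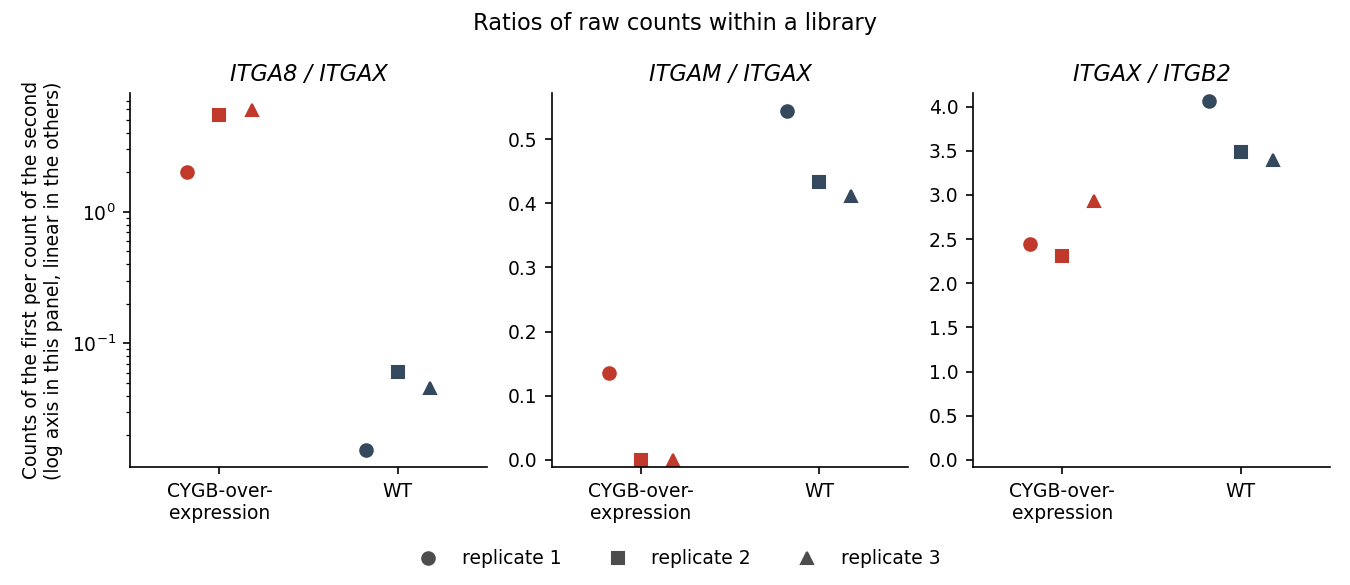
Raw counts of ITGA8 per count of ITGAX (log axis), of ITGAM per count of ITGAX and of ITGAX per count of ITGB2 (linear axes from 0) in each library, CYGB-overexpression left and WT right. ITGA8 exceeds ITGAX in every CYGB-overexpression library (2.0 or more) and is far below it in every WT library (0.0601 or less).

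Of the 18 human integrin alpha chains and 8 beta chains, 6 alpha and 3 beta chains were rows of the table, and the other chains, ITGB1 among them, were not analysed here. Beside the 3 chains above, 6 remained, and 2 rose and 4 fell in CYGB-overexpression (edgeR quasi-likelihood test, Benjamini-Hochberg adjusted over 2465 features, threshold 0.05). Among features tested, 28.3% were called higher and 71.5% lower, 99.8% in all, so being listed all but fixed a call. Adjusted over all annotated genes the shares were 19.1% higher and 54.8% lower. The median log2 fold change was 1.15 for the other 3 alpha chains and -1.14 for the 3 beta chains, against -1.30 over all features tested.

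Both alpha chains that rose were abundant. ITGA6, a laminin-binding chain, averaged 15910 ± 407 normalized counts in CYGB-overexpression and 7026 ± 416 in WT (log2 fold change 1.18, SE 0.08; edgeR adjusted p = 6.62e-06). ITGA2, a collagen-binding chain, had 6631, 3426 and 3461 normalized counts in CYGB-overexpression replicates 1 to 3, against 1848, 2081 and 2143 in the WT libraries (log2 fold change 1.15, SE 0.27; edgeR adjusted p = 0.00422). Replicate 1 was the highest for ITGA2, whereas for ITGA8 it was the lowest of its group. Per kb of exon, ITGA6 stood at 2435 normalized counts in CYGB-overexpression and ITGA2 at 570, against 41.0 for ITGA8. The level of ITGA8 was thus low beside those of the abundant chains even where it was highest.

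Among the chains that fell, ITGB2 matters most for ITGAM and ITGAX, which need it as partner. ITGB2 had 18, 29 and 27 counts in CYGB-overexpression libraries, against 48, 67 and 58 counts in WT libraries (log2 fold change -1.14, SE 0.27; edgeR adjusted p = 0.00328). The antisense gene ITGB2-AS1, added after its values were seen because it overlaps ITGB2, had 19, 24 and 29 counts in CYGB-overexpression libraries and 110, 138 and 109 in WT libraries. Without a stated strand setting, reads from the part that these genes share cannot be told apart. Of 7300 windows of 50 bases in ITGB2 transcripts, 206 (2.82%) also occurred in ITGB2-AS1, read on either strand. For windows of 100 bases it was 122 of 7828 (1.56%). These shares do not bound how many ITGB2 counts came from ITGB2-AS1 RNA, which was not tested. Per kb of exon, ITGB2 averaged 3.73 ± 0.98 normalized counts in CYGB-overexpression and 8.21 ± 0.75 in WT (SD, n = 3 each), below ITGAX in both groups. Of the 5 leukocyte chains that include ITGB2 and its alpha partners, ITGAM, ITGAX and ITGB2 were in the table. All 3 were lower, as were 71.5% of all features tested.

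ITGB4, the partner of ITGA6 in hemidesmosomes, averaged 700 ± 213 normalized counts in CYGB-overexpression and 1738 ± 41.0 in WT (log2 fold change -1.31, SE 0.21; edgeR adjusted p = 0.000489). ITGB8, which pairs with ITGAV and takes part in activating TGF-beta, had a log2 fold change of -1.13. ITGA7, a laminin-binding chain known from muscle, had -1.11. The direction of these falls rests on the scaling between the groups: under TMM or DESeq2 size factors over the whole table, ITGA7, ITGB2 and ITGB8 turned slightly positive and ITGB4 stood at -0.11. Under those and under upper-quartile factors, 0 of the 4 stayed lower past the threshold. ITGA2 and ITGA6 stayed higher under every scaling. Adjusted over all annotated genes, ITGA2 and ITGB2 lost their calls. Of the 4 RGD-binding alpha chains, ITGA8 alone was in the table.

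**Figure D4:**
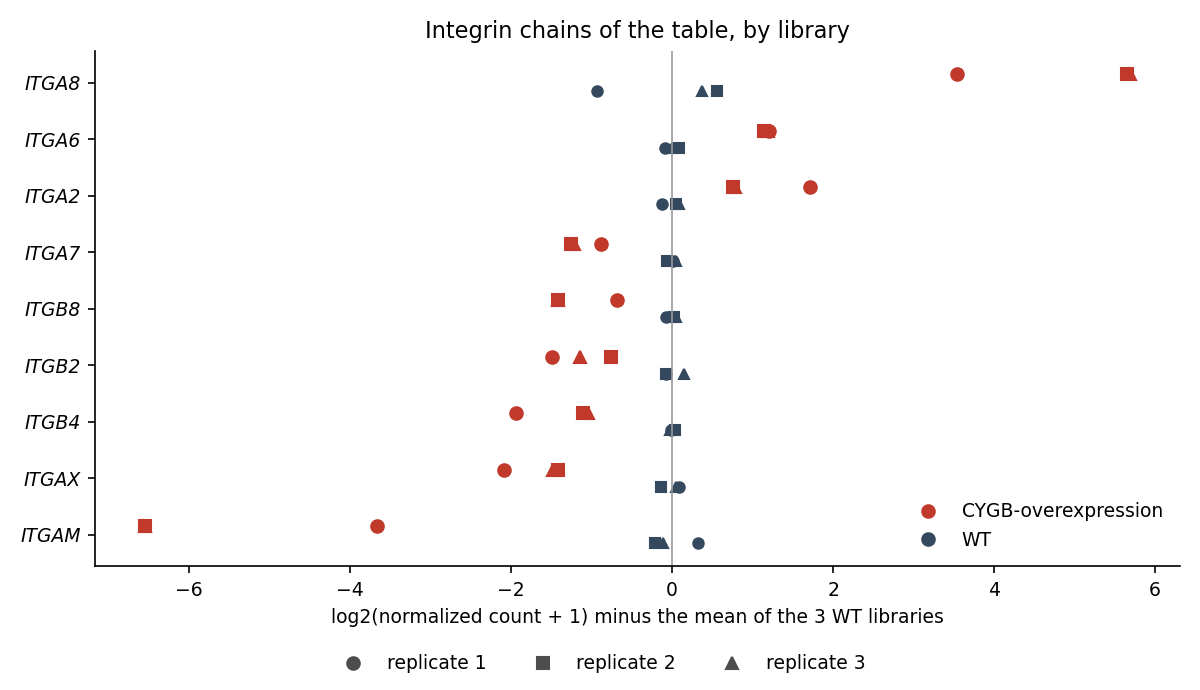
Integrin chains of the table, ordered by fold change: log2(normalized count + 1) of each library minus the mean of the 3 WT libraries (horizontal axis), CYGB-overexpression in red above WT in dark blue, with a marker shape per replicate. ITGA8 lies farthest to the right and ITGAM farthest to the left, and replicate 1 differs from replicates 2 and 3 for several chains.

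Of 13 ligands of the ITGAM and ITGAX integrins, C3 and ICAM1 were in the table. Both fell, but 71.5% of all features tested were called lower, so the count says little about ligands. C3, the complement protein whose fragment both receptors bind, had 7425, 1441 and 1500 normalized counts in CYGB-overexpression replicates 1 to 3, against 30899, 29321 and 32968 in the WT libraries (log2 fold change -3.17, SE 0.73; edgeR adjusted p = 0.00594). ICAM1, an adhesion molecule of the immunoglobulin family, had 8275, 2335 and 2354 in CYGB-overexpression libraries and 29810, 31198 and 30689 in WT libraries (log2 fold change -2.82). For both, replicate 1 was the least low library, as it was for ITGAM. Without it the log2 fold changes were -4.40 for C3 and -3.70 for ICAM1, and adjusted over all annotated genes both lost their calls. C3 also lost its call under TMM over the table.

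SPP1 (osteopontin, a secreted RGD protein) was the member in the table of the 9 listed ligands of the ITGA8 integrin. SPP1 rose, as did 28.3% of all features tested. It had 469, 760 and 845 normalized counts in CYGB-overexpression libraries and 225, 256 and 250 in WT libraries (log2 fold change 1.5, SE 0.21; edgeR adjusted p = 0.000182). As for ITGA8, replicate 1 was the lowest of its group. Nephronectin and fibronectin genes were not among the rows and were not analysed here.

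Inside the cell, 2 of 36 listed adaptors and signalling genes of integrin adhesions were in the table. Both fell, as did 71.5% of all features tested. LIMS2, an adaptor of the kinase ILK, averaged 15.4 ± 2.39 normalized counts in CYGB-overexpression and 78.9 ± 7.41 in WT (log2 fold change -2.35). TGFB1I1 (Hic-5), a focal adhesion protein, had a log2 fold change of -1.03, and under table-wide TMM it was 0.17. Talin, kindlin and vinculin genes were not among the rows and were not analysed here. Of 24 other adhesion receptors, 5 were rows and 4 could be tested; 2 rose and 2 fell. CDH11, a cadherin of mesenchymal cells, averaged 82.0 ± 34.2 normalized counts in CYGB-overexpression and 20.3 ± 9.76 in WT (log2 fold change 2.04), and SELPLG, the P-selectin ligand of leukocytes, had 1.98. The neural cell adhesion molecule NCAM1 averaged 10.4 ± 3.23 in CYGB-overexpression and 213 ± 27.5 in WT (log2 fold change -4.32), and BCAM, a laminin receptor, had -1.37. Under TMM over the table BCAM stood at -0.17 and lost its call, as it did under DESeq2 size factors. SELE, below the count filter, had 0, 0 and 0 counts in CYGB-overexpression libraries and 9, 9 and 7 in WT libraries.

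Markers of other cell types gave no uniform picture beside the chains. Of 27 leukocyte markers 1 was in the table, LYZ (lysozyme), which rose: it averaged 289 ± 60.1 normalized counts in CYGB-overexpression and 51.3 ± 6.69 in WT (log2 fold change 2.49; edgeR adjusted p = 1.6e-05), opposite to ITGAM and ITGAX. The other 26, PTPRC and CD14 among them, were not analysed here. Of 20 mesenchymal and smooth muscle markers 4 were rows and 3 could be tested; 2 rose and 1 fell. COL1A2, which encodes a type I collagen chain, had 34, 139 and 190 counts in CYGB-overexpression libraries and 0, 4 and 2 in WT libraries (log2 fold change 5.91, or 6.65 without WT replicate 2), and the homeobox gene PRRX1 had 2.02. ACTA2, smooth muscle actin, fell with a log2 fold change of -2.01, opposite to ITGA8. COL3A1, below the count filter, had 2, 26 and 22 counts in CYGB-overexpression libraries and 1, 1 and 0 in WT libraries. The summed normalized count of the 4 ranged from 11700 to 15700 in CYGB-overexpression and from 4100 to 4600 in WT, most of it PRRX1. Their part in the ITGA8 difference was not tested.

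Of 14 melanocyte markers 4 were in the table and 3 were tested, and all 3 fell: TYRP1 with a log2 fold change of -2.53 (-3.52 without CYGB-overexpression replicate 1), EDNRB with -1.50 and RAB38 with -1.42. As 71.5% of all features tested were called lower, 3 of 3 is no result about these markers. Under TMM or DESeq2 size factors over the table all 3 lost their calls, with -1.35 for TYRP1, -0.30 for EDNRB and -0.22 for RAB38 under TMM, and TYRP1 also lost its call when adjusted over all annotated genes. The first 2 genes are a pigment enzyme and an endothelin receptor, and the last acts in melanosome transport. DCT, another pigment enzyme, had 0 counts in the CYGB-overexpression libraries and 2, 13 and 15 in the WT libraries. The summed normalized count of the 4 ranged from 909 to 1120 in CYGB-overexpression and from 2630 to 2840 in WT. The defining markers MITF, PMEL, MLANA and SOX10 were not among the rows, so the melanocyte label of the line was not checked further here.

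Genes around ITGAM and ITGAX were also mostly lower. Within 500 kb of ITGAM the annotation holds 87 other genes, of which 10 (11.5%), ITGAX included, were in the table, against 4.44% of all annotated genes. Among protein-coding genes the share was 5 of 35, against 8.99% over the genome. The 9 that are not integrins lay within 500 kb of ITGAX too, and all 8 that were tested fell, beside 71.5% called lower in the table. Within 500 kb of ITGA8, 0 of the 15 other genes were in the table. At a share of 4.44%, 15 genes are too few for 0 to differ from the genome, so no contrast is drawn.

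The nearest protein-coding gene of the table upstream of ITGAM was PRSS36, which encodes a serine protease and starts 110 kb before it, with a log2 fold change of -1.27. ORAI3, a calcium channel gene farther upstream, averaged 173 ± 22.9 normalized counts in CYGB-overexpression and 564 ± 8.17 in WT (log2 fold change -1.71, SE 0.14; edgeR adjusted p = 1.26e-05). Downstream, TGFB1I1 starts 212 kb from the ITGAM start and SLC5A2, a renal glucose transporter gene, 223 kb; the log2 fold change of SLC5A2 was -1.06, and its call was lost without WT replicate 1, where it was -0.91. The non-coding genes AC026471.4, AC026471.2 and AC026471.6 had -1.63, -1.62 and -1.02, and the pseudogene CLUHP3 had -1.08. AC026471.6 overlaps part of TGFB1I1 on the other strand, and without a stated strand setting reads from the shared part cannot be told apart. ORAI3, SLC5A2, AC026471.2, CLUHP3 and AC135048.4 also overlap other annotated genes, so the same limit may hold for parts of them. AC135048.4 was below the count filter, with 7, 1 and 4 counts in CYGB-overexpression libraries and 18, 19 and 10 in WT libraries. All 8 lay between -1.71 and -1.02, far from ITGAM (-5.43). Such values are common in a table with no ratio of group means from -0.995 to 0.995 and a median of -1.30. Nothing is therefore read from their nearness to ITGAX (-1.65). Under TMM over the table AC026471.6, CLUHP3, SLC5A2 and TGFB1I1 turned positive and 1 of the 8 stayed lower past the threshold. Adjusted over all annotated genes 4 of the 8 kept a call, and PRSS36, AC026471.2, AC026471.6 and SLC5A2 lost theirs.

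**Figure D5:**
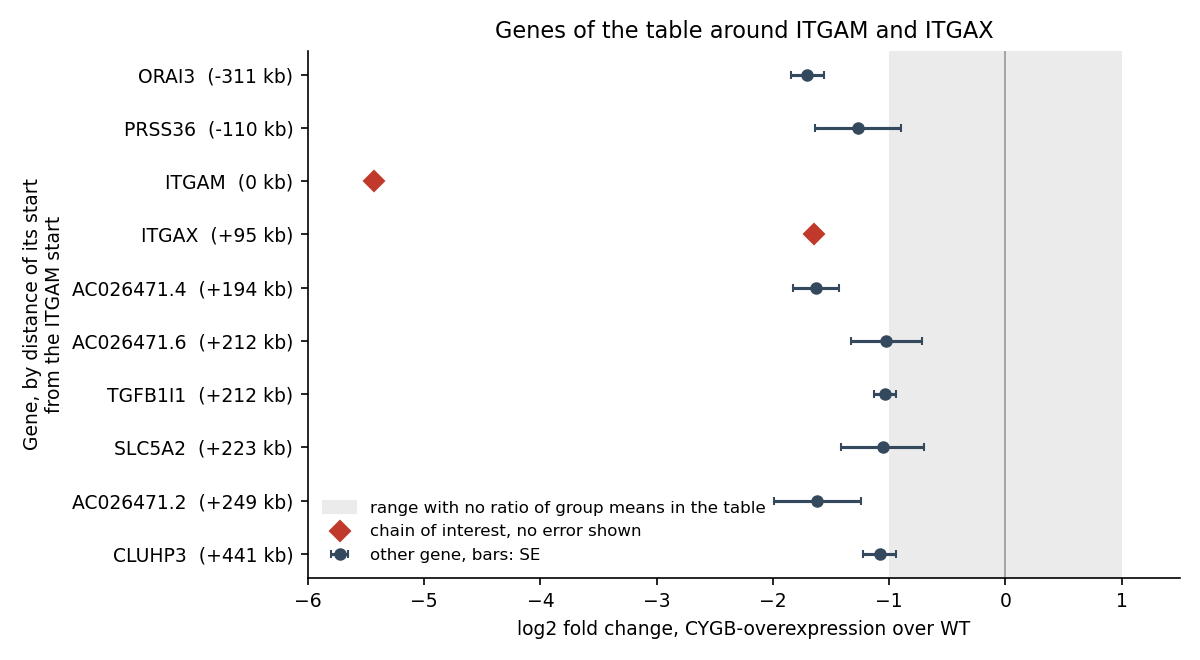
Log2 fold change (horizontal axis) of the tested genes of the table within 500 kb of ITGAM, ordered down the page by the distance of their start from the ITGAM start, with negative distances upstream. Circles with SE bars are the other genes, diamonds are ITGAM and ITGAX, the grey band is the range without a ratio of group means, and ITGAM alone lies below -2.

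The features most like each chain were found as the smallest Euclidean distance between log2(normalized count + 1) profiles over the 6 libraries, each centred on its WT mean. For ITGAM they were NEURL3 (distance 0.73), GPR37L1 (0.94), AC025580.2 (0.94), ANO9 (1.03) and COL22A1 (1.11). NEURL3 encodes a ubiquitin ligase, GPR37L1 an orphan receptor, ANO9 an anoctamin and COL22A1 a collagen. These share the pattern of ITGAM in the overexpressing group. NEURL3 had 10, 0 and 0 counts in CYGB-overexpression replicates 1 to 3, against 94, 128 and 77 in WT replicates 1 to 3. COL22A1 had 7, 0 and 0 counts in CYGB-overexpression, against 139, 186 and 135 in WT. Over the whole table, 5 features had 5 or more counts in CYGB-overexpression replicate 1 and 0 in replicates 2 and 3, against 0 features for replicate 2 and 1 for replicate 3 taken the same way.

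For ITGAX the nearest were TBX6 (0.15), RAB11FIP4 (0.19), KLHDC1 (0.20), SEMA4G (0.24) and TGM2 (0.24). TBX6 encodes a T-box transcription factor, SEMA4G a semaphorin and TGM2 transglutaminase 2, a crosslinking enzyme of matrix and cell surface. TGM2 was the most abundant, at 2109 ± 544 normalized counts in CYGB-overexpression and 6464 ± 211 in WT. These distances were smaller than those found for ITGAM. ITGAX had 44, 67 and 79 counts in CYGB-overexpression replicates 1 to 3, where ITGAM had 6, 0 and 0. Why the distances were small was not tested.

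For ITGA8 they were COL1A2 (0.89), AC009055.2 (1.07), UTS2 (1.85), KCNJ2 (1.99) and LINC02458 (2.02). KCNJ2, an inward rectifier potassium channel, had 101, 282 and 423 counts in CYGB-overexpression libraries and 8, 23 and 3 in WT libraries. COL1A2 shared with ITGA8 a replicate 1 far below replicates 2 and 3. UTS2, the urotensin 2 gene, did not: its counts were 647, 672 and 874 in CYGB-overexpression libraries, against 13, 34 and 16 in WT libraries. The distance was 7.39 between ITGAM and ITGAX, 11.6 between ITGAX and ITGA8 and 18.8 between ITGAM and ITGA8.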

How the data were processed

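Poly(A)-selected RNA of 6 A375 libraries was sequenced, 3 per group. Per the file headers, the authors deposited raw counts per feature with 1 column per library. The submitters' processing notes name GRCh38, STAR 2.5.2b, Trimmomatic 0.36, Subread 1.5.2 and featureCounts. The sources used here do not give the annotation, the strand setting (directional or not) or the rule that selected the rows. Of 2778 features, 2615 have an Ensembl identifier, of which 2611 were found in GENCODE 29; the 163 without one held 1.25% to 1.64% of a library's counts.

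Groups came from the labels. Members and gene lists were chosen with earlier results of these data known, as was the scaling: TMM takes most features as unchanged, which cannot hold here, so TMM factors were computed within groups and the middle of the empty band of ratios was set to 0. Groups were compared in edgeR 4.0.16 (R 4.3.3) by its quasi-likelihood test, with filterByExpr (minimum count 10), group as the only term and Benjamini-Hochberg adjustment over 2465 features at 0.05. DESeq2 1.42.0 was an alternative. Both were tested on simulated data with most features unchanged and the size factors known, which does not check the scaling between the groups. Fold changes are CYGB-overexpression over WT, on the log2 scale; SE comes from the F statistic. Intervals are exact binomial at 95% (scipy 1.17.1). PCR reads are not independent molecules, so intervals and floors cover counting error only. Because rows were selected on these libraries, a call is no independent evidence of a difference.

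The text names the 3 chains, every gene of 11 lists found in the table (25 beside the chains), the table's genes within 500 kb of a chain, the 5 features nearest to each in pattern, and CYGB. Promoter sequences are RefSeq's, and transcript sequences GENCODE's.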

Additional observations from a re-analysis of the deposited data

How the results depend on the processing

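Main counts were 697 features higher and 1762 lower. Replacing the scaling moved the falls most, since log2 fold changes went up by a median of 1.2 under TMM over the table and under DESeq2 size factors, 0.86 with upper-quartile factors and 0.34 with total counts. Calls then numbered 1210 in all and 465 lower under TMM, 1207 and 462 under DESeq2 size factors, and 1623 and 887 under upper-quartile factors. Of the 25 listed genes beside the chains, 22 were called (8 higher, 14 lower); 12 were called and 4 lower under TMM, 13 and 5 under DESeq2 size factors, and 9 lower under upper-quartile factors. The log2 fold change of ITGAX was -0.45 under TMM, -0.44 under DESeq2 size factors, -0.78 under upper-quartile factors and -1.30 under total counts, and that of ITGA8 was 6.39 under both TMM and DESeq2 size factors. Signs turned under TMM and DESeq2 size factors for AC026471.6 (0.17 and 0.18), CLUHP3 (0.12 and 0.13), ITGA7 (0.091 and 0.10), ITGB2 (0.060 and 0.065), ITGB8 (0.071 and 0.083), SLC5A2 (0.14 and 0.14) and TGFB1I1 (0.17 and 0.17), each without passing the threshold. The shift follows from what each scaling assumes of the table. With adjustment over every annotated gene, 471 features were called higher and 1352 lower, and 9 of 44 other named genes lost their call. None of the 44 lost its call with no filter on low counts, with DESeq2's test or without any of the 6 libraries, except SLC5A2 without WT replicate 1. Genes below the count filter gained calls: with no filter or with DESeq2's test, 25 listed genes (9 higher, 16 lower) and 9 genes near ITGAM and ITGAX were called, and without single libraries 22 to 23 and 8 to 9. Replicate numbers are shared by the groups, and whether same-numbered libraries were handled together is not labelled. Their deviations from the group means were hardly correlated (-0.02, -0.06 and 0.01), which cannot settle it. With a replicate block 696 were higher and 1763 lower. In 2 of 3 CYGB-overexpression libraries ITGAM had 0 counts, so depth limits its ratio to a range.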

Other observations

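ITGBL1, which encodes a secreted protein with integrin beta-like repeats and is not an integrin chain, was found in the table after its values were seen. It had 5, 2 and 6 counts in CYGB-overexpression replicates 1 to 3, against 0, 0 and 0 counts in WT replicates 1 to 3, and has no test here.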
